A study of Mus musculus with 2 samples.

Results

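TAMo-only intergenic peaks are open chromatin regions that lay between genes and were called in activated CD8+ T cells cultured with TAMos but not in the same cells cultured with vehicle. They were taken from 2 lists of ATAC-seq peaks, 1 per culture, on chromosomes 1 to 19. A peak of the TAMo list was a member if it overlapped no peak of the vehicle list by 1 bp or more, if its summit lay in no GENCODE gene body of any type, and if the summit lay 1 to 100 kb from the closest protein-coding start site. There were 18943 such peaks among 179414 peaks of the TAMo list. The members were thus chosen by measured values, the peak calls of both libraries, so the number and the strength of the members are given as a description.

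Both cultures held OT-I cells of the genotype labelled WT. OT-I cells are mouse CD8+ T cells with a transgenic receptor for an ovalbumin peptide, and both cultures received that peptide, OVA257-264, for 48 h. One culture was given vehicle. The other was given TAMos, described in the labels as CD11b+Ly6G-Ly6Chigh cells taken from spleens of mice carrying LLC tumors, a Lewis lung carcinoma graft. Viable CD8+ T cells were sorted from each culture, about 50000 for each library, and only 1 library was made per culture. No difference between the cultures therefore has a replicate check, no p-value is given, and every interval covers counting error only. In such bulk libraries, a region open in more cells and a region opened more often in each cell cannot be told apart.

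ATAC-seq uses a transposase that cuts and tags DNA where nucleosomes and other proteins leave it accessible. Open regions between genes include enhancers, which bind transcription factors and can act on promoters over long distances, insulators bound by CTCF, and start sites of non-coding RNAs. In CD8+ T cells, stimulation through the receptor opens many such regions, and factors of the AP-1 (Fos and Jun), NFAT, RUNX, ETS and T-box families are known to bind them. A region between genes is named here by its nearest protein-coding start site, which need not be the gene it regulates.

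Sequence could be shown for members whose summit fell in a start-site window of RefSeq, here GRCm38.p6, the assembly also called mm10. Such a window holds 250 bases before and 50 bases after an annotated start. It held the summit of 82 members, in 77 cases at a long non-coding RNA and in 5 cases at a protein-coding gene of RefSeq that GENCODE did not place there. These 82 members had a median summit coverage of 40 reads, with a range of 16 to 490 reads, so the members with a sequence covered weak and strong peaks. A few of the strongest of them are printed 5′ to 3′ on the strand of the non-coding gene, because they show what the sequence at such a region looks like. Capitals mark matches to the short motifs named in the next paragraphs, and positions are counted from 1 at the 5′ end.
4930567H12Rik: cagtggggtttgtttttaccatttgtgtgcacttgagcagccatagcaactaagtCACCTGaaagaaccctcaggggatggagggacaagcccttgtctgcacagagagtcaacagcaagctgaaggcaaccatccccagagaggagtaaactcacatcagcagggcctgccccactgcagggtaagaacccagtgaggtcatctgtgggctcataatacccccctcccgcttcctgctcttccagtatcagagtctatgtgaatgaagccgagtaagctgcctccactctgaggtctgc
Gm36823: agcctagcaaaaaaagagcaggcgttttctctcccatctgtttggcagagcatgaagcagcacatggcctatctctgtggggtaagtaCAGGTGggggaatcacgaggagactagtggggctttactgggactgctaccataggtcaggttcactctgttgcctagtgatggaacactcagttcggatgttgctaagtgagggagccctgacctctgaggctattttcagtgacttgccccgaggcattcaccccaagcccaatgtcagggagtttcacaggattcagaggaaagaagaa
Gm42217: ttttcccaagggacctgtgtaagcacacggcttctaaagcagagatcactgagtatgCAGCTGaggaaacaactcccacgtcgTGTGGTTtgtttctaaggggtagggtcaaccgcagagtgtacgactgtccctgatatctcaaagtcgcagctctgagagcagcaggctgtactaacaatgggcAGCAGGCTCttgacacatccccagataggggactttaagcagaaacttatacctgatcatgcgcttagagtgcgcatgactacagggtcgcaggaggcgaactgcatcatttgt
Gm39816: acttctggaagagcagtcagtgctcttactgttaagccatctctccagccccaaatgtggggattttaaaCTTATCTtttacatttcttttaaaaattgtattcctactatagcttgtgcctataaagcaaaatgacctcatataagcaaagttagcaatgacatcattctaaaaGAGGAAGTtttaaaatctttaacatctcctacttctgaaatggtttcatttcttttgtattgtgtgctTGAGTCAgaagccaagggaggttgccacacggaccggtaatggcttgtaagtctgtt

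The window at 4930567H12Rik (chr8:125584388-125584687, plus strand) held the summit of 1 of the 10 strongest members, which lay 14728 bp upstream of Sipa1l2, a gene for a Rap GTPase-activating protein. That peak had 490 reads at its summit over a local background of 14.9 reads, and its window held 1 E-box of the form CAGGTG, at position 56. The window at Gm36823 (chr3:38443825-38444124, minus strand), 11586 bp downstream of the Ankrd50 start site, likewise held 1 CAGGTG E-box, at position 89, under a summit of 287 reads. At Gm42217 (chr3:40480656-40480955, plus strand), 50508 bp upstream of Intu, a summit of 139 reads was accompanied by a CAGCTG E-box at position 58, a RUNX match at position 84 and a match to part of the CTCF motif at position 187. The window at Gm39816 (chr11:45752894-45753193, minus strand), 99144 bp upstream of Clint1, held a GATA match at position 71, a PU.1 match at position 176 and the AP-1 site TGAGTCA at position 244, under a summit of 143 reads. The nearest vehicle peak was between 166 bp (Gm39816) and 19468 bp (Gm42217) from these 4 members.

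A further pair of windows is shown for motifs that were rarer in the windows of members than in those of other intergenic peaks. They belonged to the strongest members whose window held the GC box bound by SP factors and the ETS motif. A match in a window can lie outside the peak. In both, the capitals again mark every motif match found.
Gm31125: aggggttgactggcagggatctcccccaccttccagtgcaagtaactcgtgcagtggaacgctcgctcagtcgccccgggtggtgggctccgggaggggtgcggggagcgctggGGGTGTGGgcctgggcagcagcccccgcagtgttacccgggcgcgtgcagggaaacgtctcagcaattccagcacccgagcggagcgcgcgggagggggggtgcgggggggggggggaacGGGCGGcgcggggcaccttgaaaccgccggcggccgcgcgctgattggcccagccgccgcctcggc
Gm12992: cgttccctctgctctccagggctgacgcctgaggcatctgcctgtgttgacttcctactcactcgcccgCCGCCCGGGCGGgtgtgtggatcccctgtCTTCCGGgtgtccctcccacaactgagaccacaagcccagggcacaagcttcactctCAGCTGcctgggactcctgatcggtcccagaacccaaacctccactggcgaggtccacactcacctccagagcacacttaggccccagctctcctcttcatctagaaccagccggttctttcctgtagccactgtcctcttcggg

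At Gm31125 (chr4:106840112-106840411, minus strand), the summit had 278 reads and the peak lay 71 bp from a vehicle peak. The window held a GC box at position 235 and a KLF match at position 115. The summit lay at position 5, and the GC box lay outside the peak (chr4:106840279-106840498). The GC content of this window, 74%, was far above the 49.8% median of the 82 member windows. At Gm12992 (chr4:131919980-131920279, minus strand), 1542 bp upstream of Tmem200b, the summit had 86 reads. The window held adjacent GC boxes at positions 70 and 76, an ETS match at position 99 and a CAGCTG E-box at position 156. The E-box lay outside the peak (chr4:131920149-131920314).

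The 82 member windows were compared with 319 start-site windows that held the summit of an intergenic TAMo peak overlapping a vehicle peak, called a shared peak in what follows, and with all 31365 distinct start-site windows on chromosomes 1 to 19. A window counted as holding a motif if it matched the letters on either strand, and 19 motifs were searched. No motif's letters contain those of another, although matches can share bases. AP-1 (TGANTCA, with N for any base) was found in 26.8% of member windows (95% Wilson interval 18.4 to 37.3%), in 17.2% of shared windows (13.5 to 21.8%) and in 7.85% of all windows. The E-box CAGGTG, a form bound by ZEB and E proteins, was found in 31.7%, 21.6% and 20.5% of the same sets. Both intervals of the difference between members and shared peaks reached close to 0: 9.59 percentage points (0.051 to 20.7) for AP-1 and 10.1 percentage points (-0.19 to 21.6) for CAGGTG. Restricted to peaks with a −log10 q of at least 10, the AP-1 difference was 4.72 percentage points.

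The opposite pattern was seen for motifs of CpG-rich promoters. The GC box GGGCGG was in 17.1% of member windows, 31.0% of shared windows and 36.0% of all windows, a difference of -14.0 percentage points between members and shared peaks (-22.4 to -3.24). With the shared windows weighted to the strength of the members, that difference was -4.37 percentage points. The ETS motif CCGGAAG was in 2.44% of member windows and 8.78% of shared windows, and the interval of that difference ran from -10.4 to 0.24 percentage points. The partial CTCF motif AGNNGGCNC was in 18.3% and 25.1%, and its difference of -6.79 percentage points had an interval from -15.3 to 3.90. Median GC content was 49.8% in member windows and 53% in shared windows. The median observed-to-expected ratio of CpG dinucleotides was 0.224 against 0.383, so the member windows were poorer in CpG. Neither median was weighted to the strength of the members, so these differences are not separated from peak strength.

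For the other motifs searched, the interval of the difference between members and shared peaks included 0. RUNX (TGTGGTT) was in 9.76% of member windows and 8.78% of shared windows, a difference of 0.98 percentage points (-4.97 to 9.72). T-box (GGTGTGA) was in 7.32% and 6.90%, PU.1 (GAGGAAGT) in 6.10% and 7.52%, NF-kB (GGGANTTCC) in 3.66% and 1.25%, and C/EBP (TTGCNNAA) in 14.6% and 12.5%. NFAT (TGGAAAA) was in 2.44% and 7.84%, a difference of -5.40 percentage points (-9.30 to 1.11), and the interferon element GAAANNGAA was in 3.66% and 9.09%, a difference of -5.43 percentage points (-9.81 to 1.65). Both were about as far apart as the ETS shares. For CRE (TGACGTCA), TCF/LEF (CTTTGAT), KLF (CCACACCC), GATA factors (searched as AGATAAG) and the E-box CAGCTG the differences were between -4.24 and 0.84 percentage points. EGR (GCGTGGGCG) and NR4A (AAAGGTCA) were in none of the 82 member windows, which allows a share of up to 4.48% by the Wilson interval, and were in 0 and 3 of the 319 shared windows. A match shows only that the letters are present in the window, in some cases outside the peak. These windows stand for members at annotated start sites, not for all members.

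Summit coverage was lower in members than in shared peaks. Coverage in reads was recovered from the fold and p-value that the authors' peak caller gave each summit. In the members it had a median of 39 reads, with the middle of the distribution between 27 and 68 reads, a 90th percentile of 121 reads and a maximum of 962 reads. The 27667 shared intergenic peaks had a median of 126 reads. Members were also narrower, with a median width of 212 bp against 339 bp, and 95.9% of them had 1 summit, against 79.0% of shared peaks. The authors' fold enrichment over local background had a median of 4.10 in members and 8.23 in shared peaks. Strength enters whether a peak is called at all, so these values describe the choice and were not tested.

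**Figure D1:**
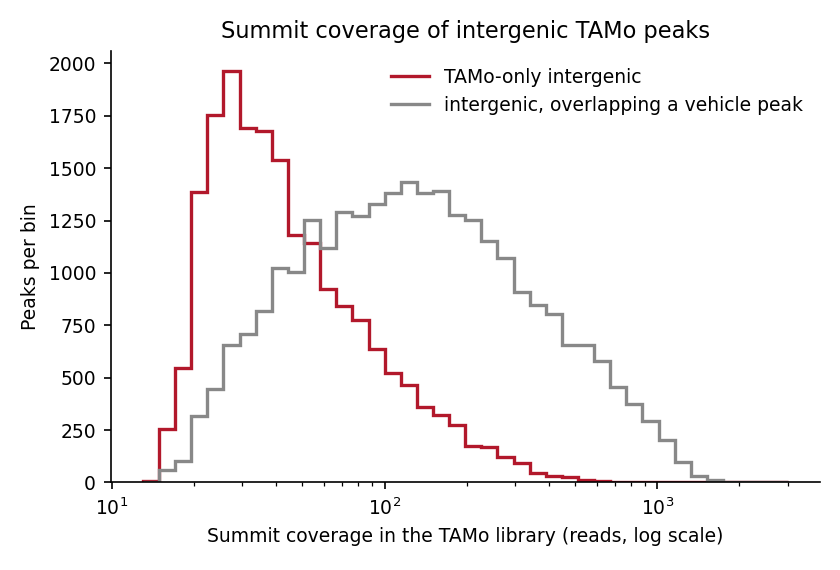
Number of intergenic TAMo peaks (y axis) by summit coverage in the TAMo library in reads (x axis, log scale), in equal steps of log coverage. The red line shows the 18943 TAMo-only peaks, with a median of 39 reads, and the grey line the 27667 peaks that overlap a vehicle peak, with a median of 126 reads; the distributions overlap from 14 reads upward.

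Among all intergenic TAMo peaks of the distance window, 40.6% (40.2 to 41.1%) were TAMo-only. Over the whole TAMo list the share was 39.5%, and in introns it was 43.2%, or 34411 peaks. In the other direction, 13.7% of intergenic vehicle peaks of the same window, or 4498 of 32948, overlapped no TAMo peak. These shares describe the contrast that chose the members and support nothing by themselves. The libraries also differed in depth: the most frequent background was 4.71 reads for vehicle against 5.80 for TAMo, a ratio of 1.23.

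The TAMo-only share depended strongly on peak strength. With the TAMo list divided into 10 equal parts by −log10 q, 79.2% of intergenic peaks were TAMo-only in the weakest part, 45.1% in the fifth and 0.797% in the strongest. Intronic peaks followed the same course, from 80.8% to 1.16%. By coverage, 78.5% of intergenic peaks with up to 30 reads were TAMo-only, then 58.7% at 31 to 60 reads, 35.4% at 61 to 120 reads, 17.99% at 121 to 240 reads, 7.90% at 241 to 480 reads and 1.21% above 480 reads. The 2 lowest of these bins held 6383 and 7009 members.

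**Figure D2:**
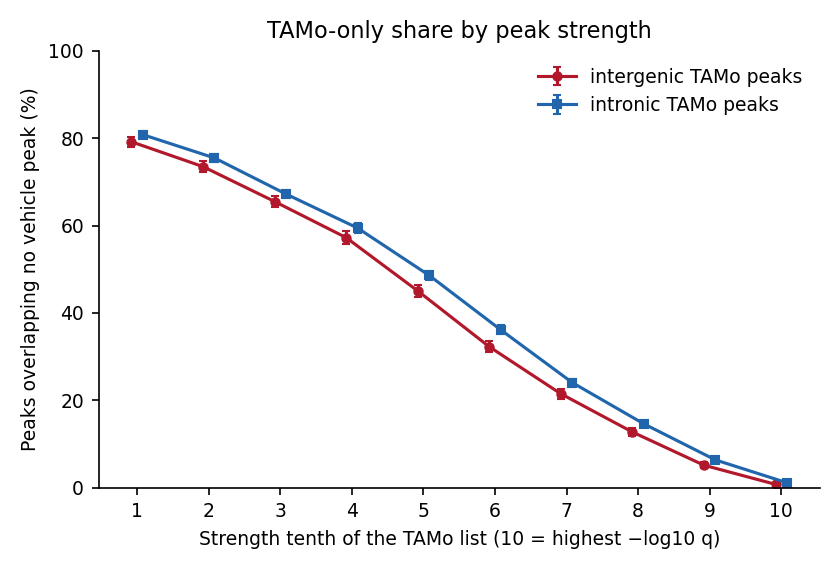
Share of TAMo peaks that overlap no vehicle peak (y axis, percent) in 10 equal groups of the TAMo list by −log10 q (x axis, group 10 is strongest). Red circles are intergenic and blue squares intronic peaks, with 95% Wilson intervals; the intergenic share falls from 79.2% in the weakest group to 0.797% in the strongest.

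Peaks as weak as most members were also called in the vehicle library. Among the 25441 vehicle peaks that lay on the genome-wide background, the lowest coverage was 13 reads, the 10th percentile 18 reads, and the median 26 reads. Of the members, 8884 (46.9%) lay on the genome-wide background, against 20.7% of shared peaks. Scaled down by the depth ratio, 116 of these 8884 members (1.31%) fell below the weakest such vehicle peak, and 1885 (21.2%) fell below the 10th percentile of such vehicle peaks. At the other end, 3311 members (17.5%) had a depth-scaled coverage above the median vehicle peak, against 63.9% of shared peaks. The files give no vehicle coverage at places without a vehicle peak, so a member is a region without a call in vehicle and need not be closed there.

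Members of high coverage often stood on a high local background. At 61 to 120 reads, the median background was 14.4 reads under members and 9.20 reads under shared peaks. At 241 to 480 reads it was 50.5 reads against 24.9 reads, and above 480 reads it was 78.9 reads against 46.2 reads. The 431 members above 240 reads lay a median of 1468 bp from the nearest vehicle peak, and 6.96% of them lay more than 10 kb away. For the 6383 members of at most 30 reads the median gap was 5908 bp, and 31.5% lay more than 10 kb away. High-coverage members thus lay closer to vehicle peaks than low-coverage members did.

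The 10 members with the highest −log10 q included exceptions to that pattern. The strongest lay 66098 bp upstream of Dyrk2, a dual-specificity kinase gene (chr10:118935021-118935724), with 481 reads over a background of 13.8 reads, and the nearest vehicle peak was 41653 bp away with 58 reads. A member 72852 bp downstream of the start of Hlx, a homeobox factor gene (chr1:184659583-184659961), had 470 reads and lay 30086 bp from a vehicle peak of 29 reads. A member 38063 bp upstream of Klf6, a zinc-finger factor gene (chr13:5823217-5823775), had 433 reads and lay 13476 bp from a vehicle peak of 376 reads. No vehicle peak lay within 10 kb of these 3 members.

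Other strong members lay closer to vehicle peaks. The member 57798 bp downstream of the start of Rgs2, a regulator of G protein signalling (chr1:143946040-143946450), had 631 reads and lay 4188 bp from a vehicle peak of 72 reads. One lay 6518 bp upstream of Cdcp1, a transmembrane glycoprotein gene (chr9:123222370-123222891), with 410 reads and a vehicle peak of 20 reads 6543 bp away. The members near 1700013G24Rik (chr4:137448844-137449513, 734 reads) and 3110018I06Rik (chr12:107394330-107394866, 539 reads) lay 2470 bp and 2606 bp from vehicle peaks of 23 and 18 reads. In contrast, the member near Lonrf1 (chr8:36251392-36251993, 864 reads) lay 1498 bp from a vehicle peak of 805 reads. The member with the highest coverage, 962 reads, lay 22462 bp downstream of the start of Dnajb12, an endoplasmic reticulum co-chaperone gene (chr10:59901903-59902461), and 1881 bp from a vehicle peak of 1030 reads. These last 2 members were thus neighbours of regions with high coverage in vehicle.

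For 4 members no whole number of reads could be recovered. They lay near S100a11 (chr3:93528708-93528900), Alpl (chr4:137815526-137816210), Akap13 (chr7:75432160-75432325) and Nsfl1c (chr2:151512157-151512732). The first 3 carried the same fold of 4.16 and the same −log10 q of 873, which occurred at 7 TAMo summits on 6 chromosomes. They were left out of the ranking of single members.

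The median gap between a member and the nearest vehicle peak was 3415 bp. Of the members, 17.97% lay within 500 bp of a vehicle peak, 25.4% within 1 kb and 59.6% within 5 kb. A further view of the same distances is that 22.1% lay more than 10 kb, 3.62% more than 50 kb and 1.27% (240 members) more than 100 kb from any vehicle peak. Intronic TAMo-only peaks had a median gap of 3772 bp and nearly the same shares. The reverse set, intergenic vehicle-only peaks, lay closer to the other list, with a median gap of 1057.5 bp and 35.8% within 500 bp, beside a TAMo list that is longer.

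**Figure D3:**
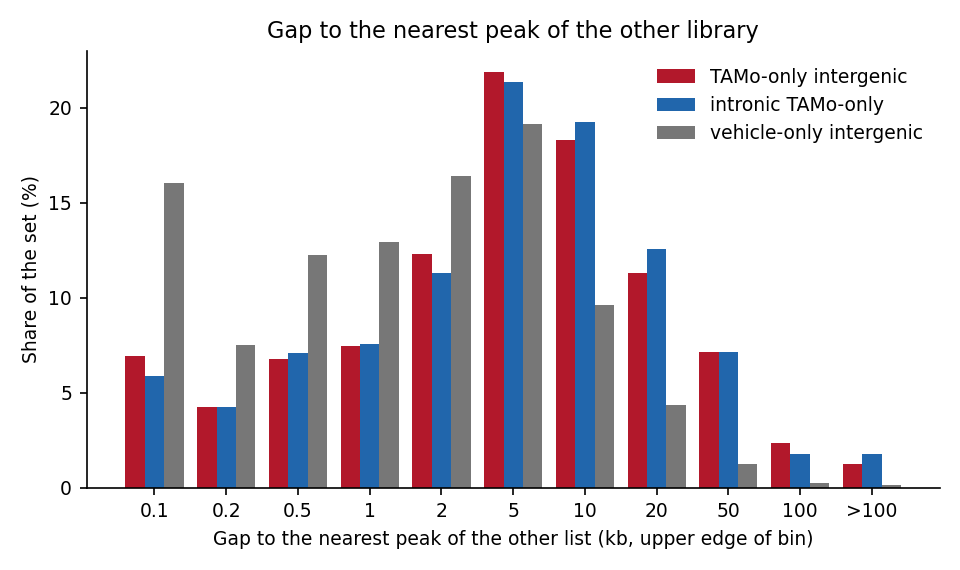
Share of each set (y axis, percent) by the gap in kb to the nearest peak of the other library (x axis, bins named by their upper edge). Red bars are the 18943 TAMo-only intergenic peaks, blue bars the 34411 intronic TAMo-only peaks and grey bars the 4498 vehicle-only intergenic peaks; the median gaps are 3415 bp, 3772 bp and 1057.5 bp.

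Most members lay near other TAMo peaks. Another TAMo peak lay within 5 kb of 79.4% of members (78.8 to 80.0%) and of 84.8% of shared peaks (84.4 to 85.3%). Another TAMo-only peak of any kind lay within 5 kb of 52.2% of members. Stretches were counted as well, meaning runs of TAMo-only peaks with no vehicle peak between them. Of the members, 33.5% stood alone between vehicle peaks, and 10.8% (2040 members) belonged to stretches of 6 or more. There were 11811 stretches with a member, and 535 of these had at least 6 TAMo-only peaks.

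The 3 stretches with most members were chosen after their values were seen. The first, upstream of Snrk, an AMPK-related kinase gene (chr9:122023026-122110916), held 16 TAMo-only peaks with no vehicle call over 87.9 kb, of which 13 were members. Those members were weak, with a median of 27 reads and a maximum of 52 reads. A stretch of 95.9 kb near Gm11733 and Tnrc6c (chr11:117495237-117591155) held 12 members with a median of 32.5 reads. One of 288 kb near Slc22a23 (chr13:34354915-34643227) also held 12 members, with a maximum of 140 reads.

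Members and shared peaks lay at like distances from genes. The median distance to the nearest start site was 22462 bp in members and 20464 bp in shared peaks, and 69.5% and 68.7% lay upstream of it. The TAMo-only share was 39.1% at 1 to 5 kb, 38.8% at 5 to 10 kb, 39.5% at 10 to 25 kb, 41.03% at 25 to 50 kb and 44.1% (43.1 to 45.1%) at 50 to 100 kb. To take strength into account, each peak was given the TAMo-only share of its strength group among those 10, and the sum of these shares over a set is called the expected number. The observed number was 1.04 times the expected number at 1 to 5 kb, 0.95 times at 5 to 10 kb and 1.06 times at 50 to 100 kb. Across the 19 chromosomes the TAMo-only share ran from 36.8% on chromosome 11 to 44.0% on chromosome 18, with observed-to-expected ratios from 0.94 to 1.07.

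Values at the edges of the rule were alike. The 51 members at 0 to 10 bp from a vehicle peak and the 13 shared peaks that overlapped one by at most 10 bp both had a median of 38 reads. At the inner distance limit of 1 kb, the 66 members at most 100 bp beyond it had a median of 71 reads, and the 49 otherwise equal peaks at most 100 bp short of it had 69 reads. At the outer limit of 100 kb, the medians were 35 reads for the 69 members within 1 kb inside it and 34.5 reads for the 54 peaks within 1 kb outside it.

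Some members were intergenic in GENCODE only. RefSeq gene bodies held the summits of 2628 members (13.9%), in 1902 cases a long non-coding RNA and in 587 cases a protein-coding gene. For shared peaks the share was 15.7%. A GENCODE start site of a gene that is not protein-coding lay within 1 kb of 502 members (2.65%, 2.43 to 2.89%) and of 3.94% of shared peaks (3.72 to 4.18%).

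At least 1 member had its nearest start site at 7487 of 20780 autosomal protein-coding genes, or 36.0%. Of these genes, 3168 had 1 member and 1042 had 5 or more, and the latter took 7115 members. There were 1778 genes with members and no shared intergenic peak, 57 of them with at least 5 members. Genes with more members more often had a promoter peak, within 1 kb of a start site, in both lists, from 59.6% of genes with no member to 87.6% of genes with 9 or more. The same share by number of shared peaks is not given, so this rise need not be particular to members. The median log2 ratio of promoter coverage, TAMo over vehicle after depth scaling, was 0.02 for genes with no member, 0.05 with 1 and 0.08 with 9 or more. These shifts were small beside the spread between genes, whose quartiles with 9 or more members were -0.04 and 0.31.

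The TAMo-only share near genes with a promoter peak in both lists was 39.3%. It was 46.9% (44.5 to 49.3%) near genes whose promoter peak was in the TAMo list only, 45.0% (40.5 to 49.5%) near those with one in the vehicle list only, and 45.8% (44.6 to 46.9%) near those with neither. In terms of the expected number these were 0.99, 1.07, 1.03 and 1.05 times. Genes with a promoter peak in 1 list only thus had like shares whichever list it was.

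Some genes were the nearest gene of many members. Ywhaz, the gene of the adaptor protein 14-3-3 zeta, had 18 members of 40 peaks against 15.2 expected, with 20 to 157 reads. Its promoter peak had 804 reads in vehicle and 886 reads in TAMo. Arhgap11a, a RhoGAP gene, had 16 members of 20 peaks against 11.04 expected, with 20 to 89 reads. Il12a, which encodes the p35 subunit of interleukin 12, had 16 members against 13.2 expected and 18 shared peaks. Olig3, a helix-loop-helix factor gene, had 15 members of 29 peaks against 12.2 expected, with a median of 41 reads, and its promoter peak had 48 reads in vehicle and 119 reads in TAMo. Mex3b, an RNA-binding protein gene, had 15 members of 24 peaks against 13.1 expected, with a median of 28 reads, and Gm11733 had 15 of 21 against 10.3 expected, with a median of 47 reads. Irf2bp2, a transcriptional corepressor gene, had 15 of 43 peaks (34.9%) against 15.2 expected, so its number was that of peaks of the same strength.

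S1pr1 encodes the sphingosine 1-phosphate receptor that lets lymphocytes leave lymphoid organs. It had 15 members of 44 intergenic TAMo peaks, against 15.7 expected, so its number was close to that of peaks of the same strength. The members had between 26 and 238 reads with a median of 48 reads. The vehicle list held 6 intergenic peaks near S1pr1 that overlapped no TAMo peak. Its promoter peak had 495 reads in vehicle and 407 reads in TAMo, a depth-scaled log2 ratio of -0.58, so the promoter had less depth-scaled coverage in the TAMo library.

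**Figure D4:**
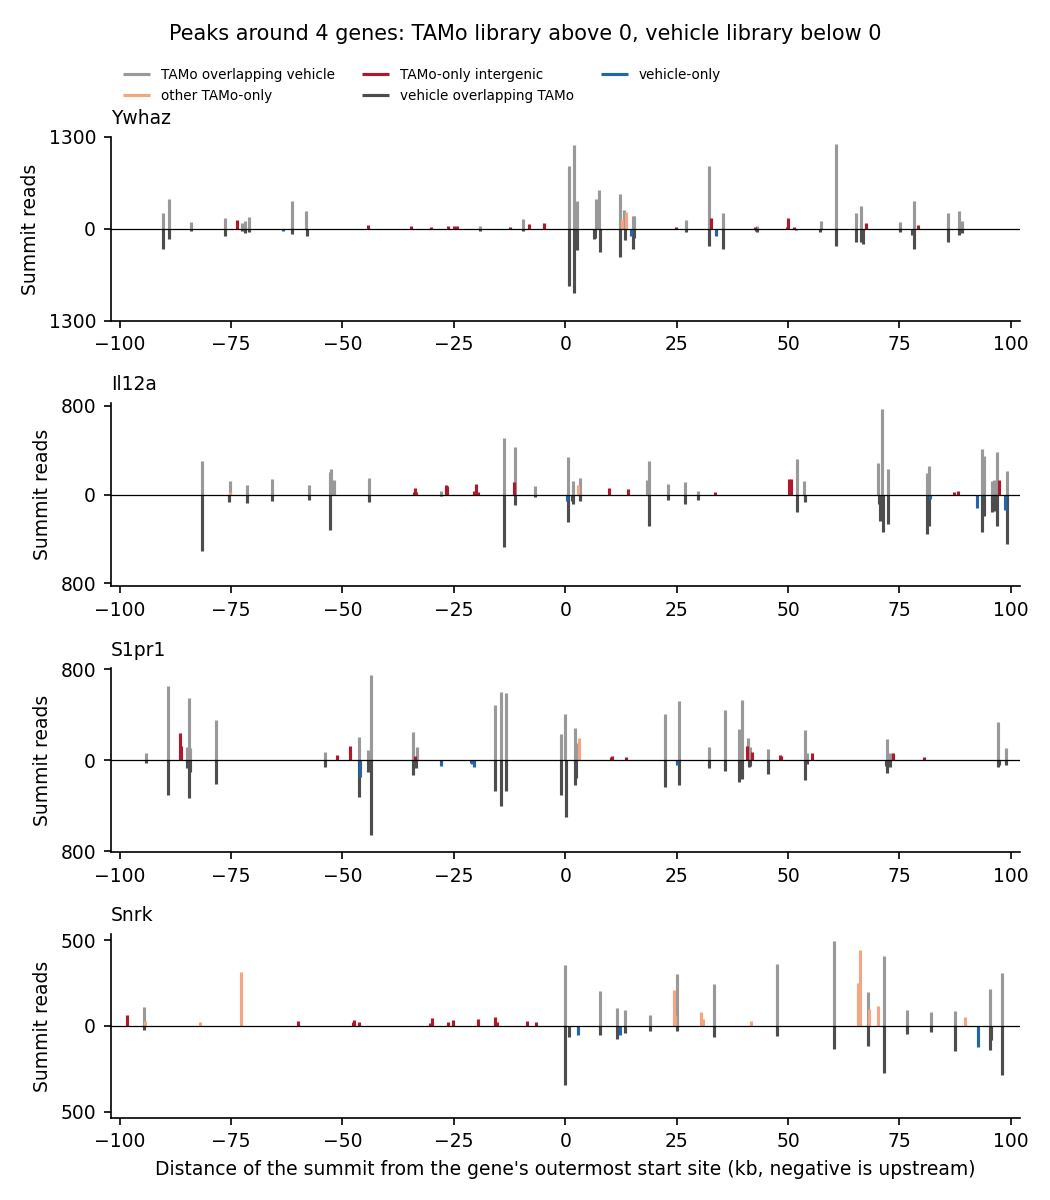
Summit coverage in reads (y axis) of every peak within 100 kb of the outermost start site of Ywhaz, Il12a, S1pr1 and Snrk, by distance from that start in kb (x axis, negative is upstream), with TAMo peaks drawn upward and vehicle peaks downward. Red lines are TAMo-only intergenic peaks, light orange lines TAMo-only peaks elsewhere, grey lines peaks found in both lists and blue lines vehicle-only peaks; near Ywhaz the members reach 157 reads, near S1pr1 238 reads and near Snrk 52 reads, apart from 1 of 64 reads near the left edge that has Pomgnt2 as its nearest gene.

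Gene lists of T cell programmes were read against the 40.6% of all intergenic TAMo peaks and against the number expected from strength. Near 23 activation factor genes (the AP-1, NFAT and Egr families and related factors), 62 of 243 intergenic TAMo peaks were members, or 25.5% (20.4 to 31.3%), against 71.5 expected. Near 22 effector function genes the count was 54 of 214 (25.2%, 19.9 to 31.5%) against 65.9 expected. Near 24 genes of T cell receptor signalling it was 36 of 132 (27.3%, 20.4 to 35.4%) against 45.7 expected. Inhibitory receptor and exhaustion genes had 71 of 214 (33.2%) against 78.9 expected. These 4 lists together held 89 genes and 213 members of 773 peaks, or 27.6% (24.5 to 30.8%), which was 0.84 times the expected number. This pooled value does not stand for T cell genes in general. The naive, memory and stem list was at 1.07 times and the TGF-beta and regulatory T cell list at 1.01 times, while T cell markers were at 0.75 times.

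**Figure D5:**
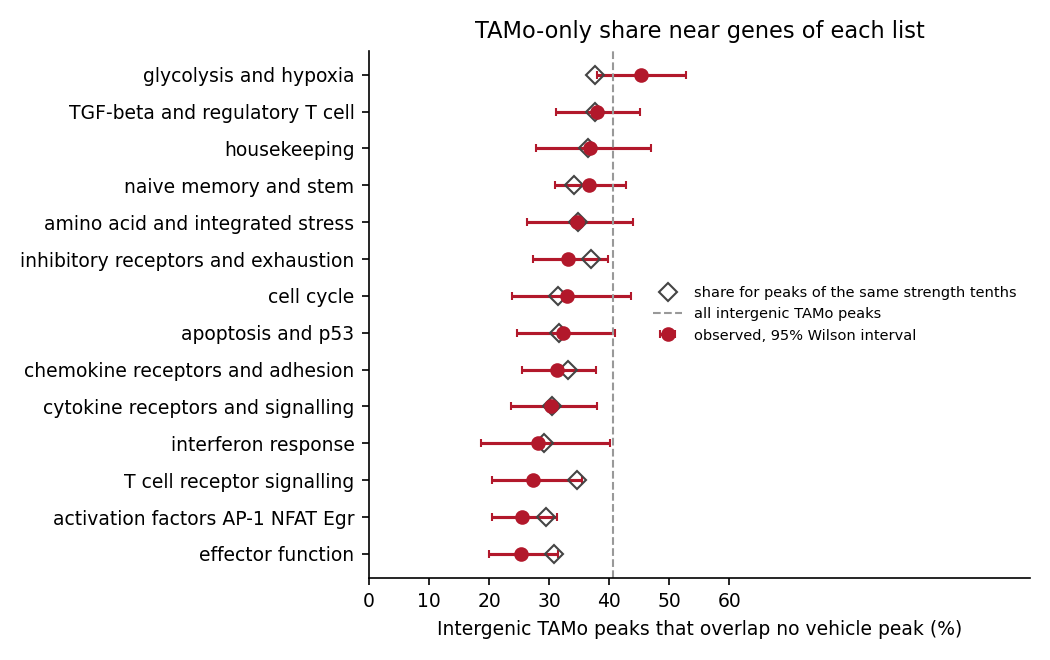
Share of intergenic TAMo peaks near the genes of each of the 14 T cell, metabolic and control programmes that overlap no vehicle peak (x axis, percent), with 95% Wilson intervals (red), beside the share expected from peak strength (open diamonds) and the 40.6% of all such peaks (dashed line). Among these 14 lists effector genes stand lowest with 25.2% and glycolysis and hypoxia genes highest with 45.2%; the cell type marker lists are not drawn.

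Fosl2, an AP-1 subunit gene named after its values were seen, had most members of the activation list, 10 of 16 peaks against 6.73 expected. Within that list, the members with most reads lay near Nfkb1, the gene of the NF-kB subunit p105 (299 reads, 65 bp from a vehicle peak of 190 reads), and near Irf4, a factor induced by receptor signalling (214 reads, 182 bp from a vehicle peak of 264 reads). Both lay within 200 bp of a vehicle peak. Among effector genes, the member 7406 bp upstream of Klrg1, a receptor of terminally differentiated effector cells, had 300 reads over a background of 26.0 reads, 1368 bp from a vehicle peak of 184 reads. Klrg1 also had a promoter peak of 26 reads in vehicle and 159 reads in TAMo. The member near Nkg7, a cytotoxic granule protein gene, had 462 reads over a background of 124 reads. It was the only intergenic TAMo peak of that gene. This member lay 1654 bp downstream of the Nkg7 start and 1440 bp from a vehicle peak of 742 reads.

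Among inhibitory and exhaustion genes, members of 224 reads near Bhlhe40 and 185 reads near Cd200 lay 100 bp and 20 bp from vehicle peaks. In the T cell receptor signalling list, the highest members lay near Cd6, a surface co-receptor gene (245 reads), and Prkcq, the gene of protein kinase C theta (238 reads). They lay 84 bp and 397 bp from vehicle peaks of 217 and 156 reads. Of the 8 members named for these 4 lists, those of Klrg1 and Nkg7 alone lay more than 500 bp from a vehicle peak.

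The naive, memory and stem list had 92 members of 251 peaks (36.7%, 30.9 to 42.8%) against 85.8 expected. Its highest members included one of 567 reads 31137 bp upstream of Ccr7, the lymph node homing receptor gene, which lay 2337 bp from a vehicle peak, and one of 511 reads near Klf2, a quiescence factor gene, which lay 19 bp from one. The TGF-beta and regulatory T cell list had 69 of 182 (37.9%) against 68.6 expected. Its highest members lay near Itgav, an integrin gene whose product activates TGF-beta (292 reads over a background of 129 reads, 51 bp from a vehicle peak of 307 reads), and near Pmepa1, a target of TGF-beta signalling (223 reads over a background of 17.4 reads, 4736 bp from a vehicle peak). Pmepa1 had 11 members and 12 shared peaks, and its promoter peak had 403 reads in vehicle and 488 reads in TAMo.

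Glycolysis and hypoxia genes had the highest share of these programmes, 76 of 168 (45.2%, 37.9 to 52.8%) against 63.2 expected, or 1.203 times. Of its 23 genes, 15 had a member. Egln3, an oxygen-sensing prolyl hydroxylase gene named here after its values were seen, had 14 members of 31 peaks against 10.99 expected, and without it the list had 62 of 137 (45.3%) against 52.2 expected. Hk2, the gene of hexokinase 2, had 11 members of 18 peaks with a median of 62 reads, the highest of which had 284 reads 1206 bp upstream of the start and lay 553 bp from a vehicle peak of 903 reads. Pfkfb3, which makes the activator of phosphofructokinase, had 6 members of 12 peaks, the highest with 269 reads, 641 bp from a vehicle peak of 212 reads. The promoter log2 ratios of Hk2 and Pfkfb3 were 0.09 and 0.05.

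The other programmes lay near their expected numbers. Interferon response genes had 18 members of 64 peaks (28.1%) and a ratio to the expected number of 0.97. Cytokine receptor and signalling genes had 47 of 155 (30.3%) and 1.00, with a member of 513 reads near Cish and one of 412 reads near Socs3, both feedback inhibitors of cytokine signalling, that lay 254 bp and 223 bp from vehicle peaks of 896 and 1115 reads. Amino acid and integrated stress genes had 37 of 107 (34.6%) and 0.99, with a member of 795 reads near Ddit4, an inhibitor of mTORC1, and one of 308 reads near Nos2, the inducible nitric oxide synthase gene, which lay 820 bp and 3015 bp from vehicle peaks. Apoptosis and p53 genes had 40 of 124 (32.3%) and 1.02, with members of 635 reads near Mcl1 and 489 reads near Gadd45b, 338 bp and 3535 bp from vehicle peaks. Chemokine receptor and adhesion genes had 67 of 214 (31.3%) and 0.94. Cell cycle genes had 27 of 82 (32.9%) and 1.05, with a member of 776 reads 85657 bp upstream of Ccnd2, the cyclin D2 gene, and one of 282 reads over a background of 12 reads near Ccne2, the cyclin E2 gene, 2695 bp and 1159 bp from vehicle peaks. Housekeeping genes had 35 of 95 (36.8%) and 1.01, of which Ywhaz held 18 members.

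In the interferon response list, members near Socs1, a suppressor of cytokine signalling gene, and near Bst2, which encodes tetherin, had 254 and 218 reads. They lay 152 bp and 2544 bp from vehicle peaks. The member near Bst2 was the only intergenic TAMo peak of that gene. Ccr1, a chemokine receptor gene, had 7 members of 18 peaks against 4.88 expected, the highest with 396 reads, 53 bp from a vehicle peak of 470 reads. Its promoter peak had 97 reads in vehicle and 282 reads in TAMo, a depth-scaled log2 ratio of 1.24.

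Marker genes of other cell types were examined because the TAMo culture also held myeloid cells. All 12 T cell markers had a promoter peak in both lists, with summed promoter coverage of 5777 reads in vehicle and 7225 reads in TAMo, a depth-scaled ratio of 1.01. Of 19 monocyte and macrophage markers, 9 had a promoter peak in vehicle and 12 in TAMo, 8 of them in both. Their summed reads were 1564 and 2672, a depth-scaled ratio of 1.39 (1.29 without Cd14). In such sums a marker without a promoter peak counted as 0 reads. The TAMo sum thus held 4 markers without a vehicle peak, and the vehicle sum 1 without a TAMo peak. This ratio therefore does not compare coverage at the same promoters. Itgam, Csf1r and Adgre1, the genes of CD11b, the M-CSF receptor and F4/80, had no promoter peak in vehicle and 118, 100 and 31 reads in TAMo, and Fcgr3, an Fc receptor gene, had none in vehicle and 27 reads in TAMo. Fcgr1, also an Fc receptor gene, went the other way, with 18 reads in vehicle and no promoter peak in TAMo. Of the markers with a peak in both lists, Cd14 had 141 reads in vehicle and 411 in TAMo, and Cd300a had 34 and 141, while Cd68 had 510 and 661 (depth-scaled log2 ratio 0.07), Cebpa 237 and 316 (0.11) and Fn1 48 and 64 (0.11). No promoter peak was found in either list for Ccr2, Cd300c, Ly6c2, Lyz2, Mpeg1 and Tyrobp. The part of myeloid cells in the members was not tested.

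Members near the monocyte and macrophage markers numbered 38 of 108 intergenic TAMo peaks (35.2%, 26.8 to 44.6%), 0.83 times the expected number. The highest lay near Cebpa (133 reads) and Cebpb (124 reads), genes of C/EBP factors. Near T cell markers they numbered 26 of 100 (26.0%, 18.4 to 35.4%), 0.75 times the expected number, led by members near Thy1 (202 reads) and Bcl11b (196 reads). The Thy1 promoter peak had 506 reads in the vehicle library and 371 in the TAMo library. Its depth-scaled log2 ratio of -0.75 was the lowest of the T cell markers, followed by Cd2 (-0.56). Cd8b1 (0.45) and Cd5 (0.34) had the highest ratios, and the other T cell markers with a ratio lay between -0.16 and 0.01.

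For neutrophil markers, 1 of 12 had a promoter peak in TAMo, Mmp9 with 75 reads, and none had one in vehicle, and 13 of 32 intergenic peaks were members (40.6%, 25.5 to 57.7%). B cell markers had a promoter peak for 6 of 10 genes in vehicle and 8 of 10 in TAMo. Their summed reads had a depth-scaled ratio of 1.10, with absent peaks again counted as 0 reads. That ratio was 0.97 without Blnk, which had 103 reads in TAMo and no promoter peak in vehicle. Near B cell markers, 15 of 28 intergenic peaks were members (53.6%, 35.8 to 70.5%). All 5 intergenic peaks of Pax5, the B cell identity factor gene, were members, against 2.79 expected, the highest with 101 reads. The Pax5 promoter had a peak of 30 reads in TAMo and none in vehicle, while Cd79a had no promoter peak in either list. Without Pax5, 10 of 23 peaks near B cell markers were members (43.5%), against 10.2 expected. Dendritic cell markers had a promoter peak for 6 of 10 genes in both lists, a ratio of 1.296. Near them 7 of 24 intergenic peaks were members, against 7.97 expected. Itgax, the gene of CD11c, had promoter coverage of 151 reads in vehicle and 666 reads in TAMo, and without it the ratio of the list was 1.03. The other 5 had depth-scaled log2 ratios of -0.22 (Ciita), -0.12 (Zbtb46), -0.09 (H2-Ab1), 0.06 (Batf3) and 0.30 (Flt3). Natural killer markers had a promoter peak for 5 of 8 genes in both lists, a ratio of 0.87, or 1.00 without Klre1. Near them 18 of 55 intergenic peaks were members, against 19.4 expected. Of these members, 14 belonged to Eomes, a T-box factor gene also expressed in CD8+ T cells. Without Eomes, 4 of 30 peaks near natural killer markers were members (13.3%), against 7.19 expected.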

How the data were processed

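ATAC-seq was done on 2 libraries of sorted CD8+ T cells, 1 per culture, read as pairs of 150 bp per the labels' protocols. Trimmomatic 0.36, Bowtie2, MACS2 and build mm10 were named, per the submitters' processing notes. For read shifting, duplicate removal and calling options, nothing was given in the sources used. The deposited lists were called per library. Each row holds a score, a fold enrichment (a ratio to local background), a −log10 p and a −log10 q, all set by the authors' peak caller, per the deposited values. Rows of 1 interval were joined, and the summit with the highest −log10 q was kept.

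Whole-read coverage was recovered from fold and −log10 p where the Poisson upper tail matched within 1% of the step between neighbouring coverages, and 30 rows of the vehicle list and 48 of the TAMo list had none. The recovery was tested on simulated data. Depth was taken as the most frequent background. Gene bodies and start sites came from GENCODE M21 basic (mm10). Python 3.11.15, numpy 2.4.6, pandas 2.3.3 and scipy 1.17.1 were used. Shares carry 95% Wilson intervals, and differences of shares carry intervals joined from them. Reads are not independent molecules. With 1 library per group no test between groups was possible.

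The members, the 20 gene lists and the 19 motifs were chosen with earlier results of these data known. The named items were the 10 members with the highest −log10 q and whole coverage, up to 2 genes per list with the members of highest coverage, the 6 genes with most members and those tied with the last, and, for sequences, the strongest members. No mm10 genome was used, so sequences came from RefSeq start-site windows of GRCm38.p6, and the sequence rule was applied to the members with such a window outside chromosome 18 and to the 5 motifs that departed most from shared peaks. The other planned sequence measures, within 100 bp of every summit, were not computed. Some items that meet these rules are not reported here. The list genes Gcn1 and Cybb were not matched. Alternatives changed the overlap, the threshold, the list length, the gene bodies and the distance window.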

Additional observations from a re-analysis of the deposited data

How the results depend on the processing

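Number and share of members followed the length and threshold of the lists. The count went from 18943 to 11411 with a −log10 q of at least 10 and to 8691 when the strongest TAMo peaks were taken up to the number of vehicle peaks. The share of intergenic TAMo peaks that were TAMo-only, 40.6%, became 31.1% and 26.7% in these cases, 33.3% with vehicle intervals extended by 500 bp, 41.4% when only a vehicle interval over the summit counted as shared, and 39.8% within 50 kb of a start site. Counting only protein-coding gene bodies gave 21945 members and 40.4%. The median gap to a vehicle peak was 3218 bp with the higher threshold and 4914.5 bp with extended intervals, and the median distance to a start site was 22967 bp with extended intervals. The share near the 4 pooled lists (activation factors, effector function, T cell receptor signalling and inhibitory receptors) was 19.9% with the higher threshold and 25.6% within 50 kb. The cause of these shifts was not tested, apart from fewer peaks entering by construction. For the AP-1, GC box and CAGGTG shares, the differences between members and shared peaks kept their direction under the higher threshold, under weighting by strength and, an alternative chosen after seeing the data, with windows that only overlap the interval (4.88, -15.8 and 7.70 percentage points). Windows of 50 bp around summits were not run, as only start-site windows were used. No paired analysis was possible because each culture had 1 library.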

Other observations

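Values that belong to no comparison above concern the reverse set, the 4498 intergenic vehicle-only peaks. They had a median summit coverage of 31 reads in the vehicle library, a median width of 179 bp and a median fold of 3.50, beside 39 reads, 212 bp and 4.10 in the TAMo-only set. Near a vehicle-only peak the TAMo list was close: 84.3% had a TAMo peak within 5 kb and 6.05% lay more than 10 kb away, whereas 59.6% and 22.1% of the TAMo-only intergenic peaks did so with respect to the vehicle list.

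In 2 long regions nearly without vehicle peaks, TAMo-only peaks were numerous and mostly outside the distance window. Between the genes Cox7c and Edil3 (chr13:86061623-88796842), 39 TAMo-only peaks lay in a row with no vehicle peak over 2735 kb, with a median of 28 reads, and 9 of them were within 100 kb of a start site and in no gene. A run of 33 near Ncam2 and Tmprss15 (chr16:79142421-81175816) had a median of 27 reads, with 8 such peaks. Both runs were chosen after their values were seen.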
